A study of Homo sapiens with 7 samples.

Results

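The 10 genes described here encode carriers that move amino acids across the plasma membrane: SLC7A5, SLC3A2, SLC7A8, SLC43A2, SLC1A5, SLC1A4, SLC38A1, SLC38A2, SLC7A1 and SLC6A14. They were chosen by name, and all 10 were found by symbol among the 16527 Ensembl genes of the authors' deposited table. The study sequenced RNA from PC9, an established human lung adenocarcinoma line with an activating EGFR mutation, by bulk MARS-seq, a method that counts short tags next to the poly(A) tail of each transcript. There were 4 libraries of PC9 cells with AXL knocked out, 2 from each of 2 clones that were each grown from a single sorted cell, and 3 libraries of parental PC9 cells. AXL is a receptor tyrosine kinase. The labels list no treatment in either group and the same RPMI medium for both, and the design text names the clones differently in 2 places, so clone names were not matched to the labels.

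Amino acid carriers work as an interlocked set. Sodium-coupled importers such as SLC38A1 and SLC38A2 accumulate small neutral amino acids in the cell, glutamine above all. Obligatory exchangers such as SLC1A5 and the SLC7A5 and SLC3A2 heterodimer then trade these for others, and SLC7A5 brings in leucine and other large neutral and aromatic residues. Leucine and arginine inside the cell are sensed by the mTORC1 kinase complex, and shortage of amino acids activates the kinase GCN2 and the transcription factor ATF4. Lung and other carcinomas often carry high SLC7A5 and SLC3A2.

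The upstream sequences of 3 of these genes are shown because SLC7A5 and SLC3A2, whose products form a single transporter, fell by the same amount, while SLC38A2 rose. They are the 250 bases before the RefSeq start nearest to the 5′ end of the gene in GENCODE 29, from RefSeq on GRCh38.p14. Capitals mark CACGTG, the E-box core that MYC and related factors bind.
SLC7A5 (minus strand, chr16:87869508-87869757): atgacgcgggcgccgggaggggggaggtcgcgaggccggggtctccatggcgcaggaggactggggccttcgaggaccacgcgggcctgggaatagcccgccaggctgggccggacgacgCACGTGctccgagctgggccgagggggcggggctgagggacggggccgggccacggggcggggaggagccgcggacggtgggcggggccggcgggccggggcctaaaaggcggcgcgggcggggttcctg
SLC3A2 (plus strand, chr11:62855859-62856108): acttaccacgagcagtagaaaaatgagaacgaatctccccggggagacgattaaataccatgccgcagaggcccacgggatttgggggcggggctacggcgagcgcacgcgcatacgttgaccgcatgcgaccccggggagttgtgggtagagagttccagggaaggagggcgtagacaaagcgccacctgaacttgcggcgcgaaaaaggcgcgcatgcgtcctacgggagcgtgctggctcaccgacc
SLC38A2 (minus strand, chr12:46372774-46373023): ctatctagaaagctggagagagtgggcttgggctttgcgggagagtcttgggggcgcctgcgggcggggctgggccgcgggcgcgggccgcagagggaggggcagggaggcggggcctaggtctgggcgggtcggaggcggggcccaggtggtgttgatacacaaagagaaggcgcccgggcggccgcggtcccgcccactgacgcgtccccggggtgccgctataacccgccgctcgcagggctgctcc
Both strands were searched for CACGTG and for TGATGNAA, the core of the amino acid response element bound by ATF4 with its C/EBP partners. The last 2 letters of CACGTG are the first of TGATGNAA, so the motifs can overlap by those. CACGTG begins 130 bases before the SLC7A5 start and is in neither of the other windows shown. Over the 21 upstream windows of the 10 genes, it occurred in 3, 1 each for SLC7A5, SLC7A8 and SLC1A5, against 6.34% of all 35116 windows of this length. TGATGNAA occurred in 1 of the 21, an alternative start of SLC1A5, against 3.14% of all windows. The G and C content was 79.6% for SLC7A5, 61.6% for SLC3A2 and 73.6% for SLC38A2. These matches describe letters and do not show binding.

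In AXL knockout cells, 3 of the 10 transporter genes were higher (SLC38A2, SLC1A4 and SLC43A2), 3 were lower (SLC7A5, SLC3A2 and SLC7A1) and 4 did not pass. A call means an adjusted p below 0.05 in the authors' deposited table. In bulk RNA, fewer cells of a type and less RNA per cell cannot be told apart. Over all 16522 genes tested the same rule called 38.0%, with 19.5% higher and 18.5% lower, so the 6 called among 10 stand beside a background that is itself large. Among the 2967 genes with a mean of at least 1000, where 6 of the 10 lie, 59.4% were called, 31.7% higher and 27.7% lower. Of those 6, 1 was higher and 3 were lower. The median log2 fold change of the 10 was 0.00, against -0.01 over all genes tested. No set test was run.

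The values are those of the authors' DESeq2 table: a mean normalized count over the 7 libraries and a log2 fold change of AXL knockout over parental with its standard error. Levels of each group are implied by that mean and fold change and carry no spread between libraries. For genes with a low mean, whole counts in each library were recovered from the digits of the mean, and these show the spread. The recovered libraries are known as knockout or parental but not by clone or replicate number. The means add up to 12209504 normalized counts, and size factors ran from 0.938 to 1.06. AXL itself had an implied level of 18.2 in knockout cells, against 1417 in parental cells, and the authors' deposited table gives it -6.28 ± 0.18 on the log2 scale. The 13 protein-coding mitochondrial transcripts were all lower, at a median of -0.73 and a summed level of 245327 in knockout and 413582 in parental cells. No measure of RNA quality was given in the sources used here, and its part in this fall was not tested. Of 8 epithelial markers, all were measured, 5 were higher and 1 lower, with summed levels of 163865 in knockout and 116697 in parental cells. These are 62.5% higher and 12.5% lower. Among genes with a mean of at least 1000, where all 8 lie, the shares were 31.7% and 27.7%. The lower marker was the epithelial cadherin CDH1, at 2392 in knockout and 3007 in parental cells (-0.33 ± 0.06). Of 11 blood, endothelial and stromal markers, 5 were measured, with summed levels of 2175 and 938 in knockout and parental cells. Of these 5, 1 was higher, 1 was lower and 3 did not pass. PECAM1, an endothelial adhesion molecule, was the higher one, at 1777 in knockout and 351 in parental cells, and COL1A1, a stromal collagen, the lower one, at 84 and 126 in knockout and parental cells. The endothelial cadherin CDH5 stood at 305 in knockout and 455 in parental cells, VWF at 4.87 in knockout and 0.976 in parental cells, and ACTA2 at 3.54 in knockout and 3.9 in parental cells. The part of these differences in the results below was not tested. The 4 knockout libraries come from 2 founding cells, so a difference between clones and parental cells cannot be told apart from the effect of losing AXL.

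**Figure D1:**
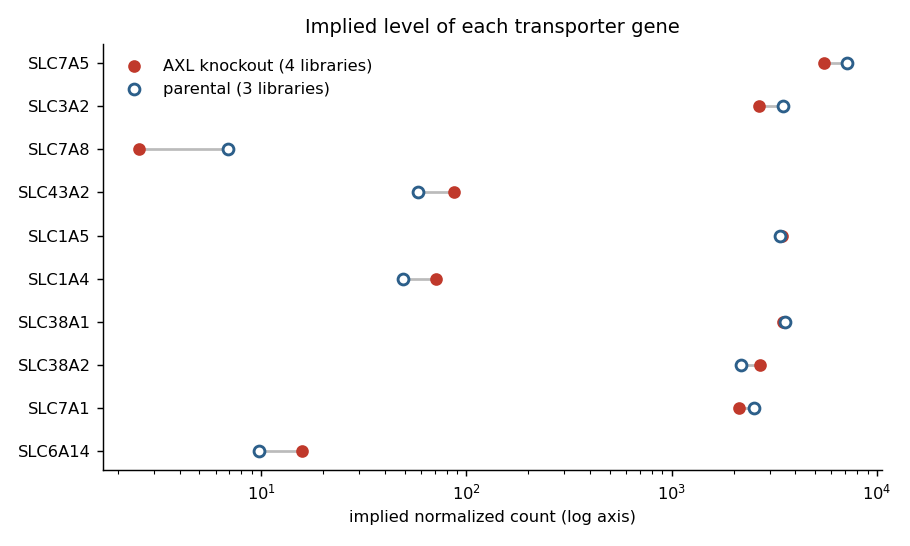
Implied normalized counts (x axis, log scale) of the 10 transporter genes in AXL knockout (filled) and parental cells (open), computed from the mean and fold change of the authors' deposited table, with no spread between libraries. SLC7A5, SLC3A2 and SLC7A1 lie to the left in knockout cells, SLC38A2, SLC1A4 and SLC43A2 to the right, and SLC1A5 and SLC38A1 nearly coincide.

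SLC7A5 and SLC3A2, the light and heavy chains of the CD98 heterodimer, fell by the same amount in AXL knockout cells. SLC7A5 (ENSG00000103257; GRCh38 chromosome 16, 87830023 to 87869488, minus strand), the catalytic chain that imports leucine and other large neutral amino acids, had an implied level of 5499 in knockout cells, against 7113 in parental cells. Its log2 fold change in the authors' deposited table was -0.37 ± 0.04. Its 95% interval ran from -0.45 to -0.29, and DESeq2's Wald test gave an adjusted p of 1.15e-17. SLC3A2 (ENSG00000168003; chromosome 11, 62856102 to 62888875, plus strand), the single-pass glycoprotein that carries the light chain to the membrane, stood at 2675 in knockout and 3468 in parental cells. The authors' deposited table gives it -0.37 ± 0.05, with a range at 95% of -0.47 to -0.28 (adjusted p 4.37e-14). The level of SLC7A5 fell by 22.7% and that of SLC3A2 fell by 22.9%, and the 2 genes lie on different chromosomes. Such a size is common among abundant genes: 9.84% of tested genes with a mean of at least 1000 had a log2 fold change as low as that of SLC7A5 or lower.

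The reads of SLC7A5 could in part come from pseudogene copies on the same chromosome. SLC7A5P1 (chromosome 16, 29613104 to 29613640) was itself measured at an implied 18.0 in knockout and 16.8 in parental cells in the authors' deposited table, far below SLC7A5. Around SLC7A5, 2 of the 10 nearest genes with a mean of at least 50 were higher and 1 was lower; their median was -0.07. The neighbours of SLC3A2 went both ways, with 4 higher, 2 lower and a median of 0.13. Next to it, SNHG1, a host gene of small nucleolar RNAs, had -0.47 ± 0.08 and PLAAT4 had 5.18 ± 0.63 in the authors' deposited table.

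Other light chains that need SLC3A2 were measured too. SLC7A11, which takes up cystine in exchange for glutamate, had 987 in knockout and 1626 in parental cells, a log2 fold change of -0.72 ± 0.07 (adjusted p 5.76e-26) in the authors' deposited table. SLC7A6, a light chain for cationic and neutral amino acids, did not pass, at 0.20 ± 0.10 (adjusted p 0.0886), with 400 in knockout and 348 in parental cells. SLC7A7, its close relative, had 13, 13, 14 and 20 counts in the knockout libraries, against 18, 19 and 25 in the parental libraries. Those groups overlapped, and SLC7A7 did not pass in the authors' deposited table (-0.40 ± 0.38, adjusted p 0.453).

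SLC7A8, the second system L light chain, was near the limit of detection. The knockout libraries held 1, 2, 3 and 4 counts, 10 in all, and the parental libraries 2, 9 and 10, 21 in all. The groups overlapped through the lowest parental library. Normalized counts averaged 2.52 ± 1.23 in knockout (SD, n = 4) and 6.89 ± 4.36 in parental libraries (SD, n = 3). SLC7A8 (ENSG00000092068; chromosome 14, 23125295 to 23183674, minus strand) did not pass in the authors' deposited table, with -1.44 ± 0.81, a range at 95% of -3.02 to 0.14 (adjusted p 0.156). At this depth a difference of the size seen for SLC7A5 was not detectable.

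SLC43A2 rose while most of the genes around it fell. It encodes a uniporter that lets branched-chain amino acids and other large neutral residues out of or into the cell without a heavy chain or an exchanged partner. The knockout libraries held 75, 77, 95 and 97 counts and the parental libraries 52, 60 and 66. Every knockout library was above every parental library. This count set is the most even and closest of those that fit the deposited mean, but 3 sets fit within 3e-13 and 11 within 1e-12, of which only this one keeps the groups apart, so it is less certain than the counts of the low genes. Normalized counts averaged 87.3 ± 12.5 in knockout (SD, n = 4) and 57.8 ± 8.19 in parental libraries (SD, n = 3). SLC43A2 (ENSG00000167703; chromosome 17, 1569267 to 1628886, minus strand) had a log2 fold change of 0.60 ± 0.20 in the authors' deposited table, with a range at 95% of 0.21 to 0.98 (adjusted p 0.00803). With a t distribution of 5 degrees of freedom for the same statistic the adjusted p was 0.0982 and the call was lost. Of its 10 nearest genes with a mean of at least 50, 9 were lower, none was higher and the median was -0.45. Over all genes tested, of any mean, 18.5% were lower. INPP5K was the neighbour that did not pass (0.08 ± 0.09). The lower neighbours include the adaptor gene YWHAE (-0.49 ± 0.04) and the splicing factor PRPF8 (-0.55 ± 0.06) in the authors' deposited table. Its relative SLC43A1 had 9, 13, 15 and 15 counts in the knockout libraries, against 6, 7 and 11 in the parental libraries. There the groups overlapped, and the authors' deposited table gives 0.76 ± 0.50 (adjusted p 0.235).

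**Figure D2:**
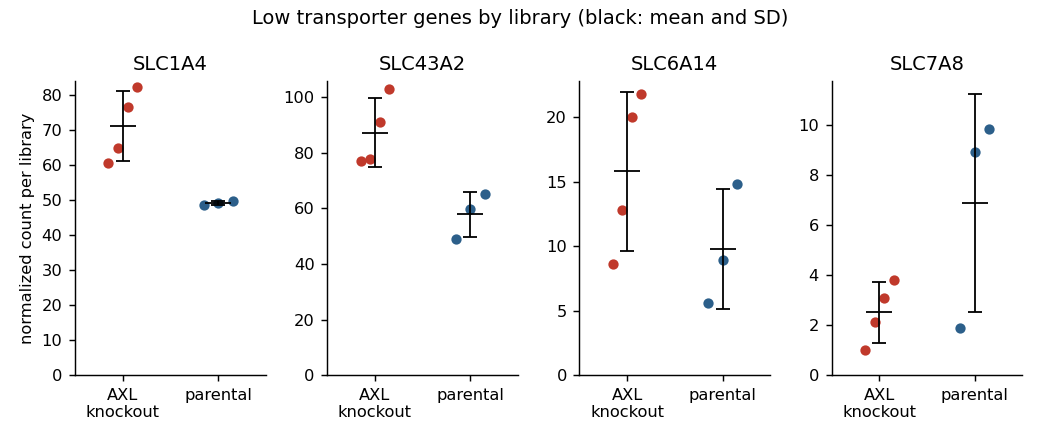
Normalized counts per library (y axis, from 0, separate scales) of the 4 transporter genes whose whole counts could be recovered, in 4 AXL knockout (left) and 3 parental libraries (right), with mean and SD in black. The groups do not overlap for SLC1A4 and SLC43A2 as drawn, and they overlap for SLC6A14 and SLC7A8. Within 1e-12, 6 count sets fit for SLC1A4 and 11 for SLC43A2. The closest set is drawn for each, the only one that keeps the groups apart, so these 2 are less certain.

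Among the neutral exchangers, SLC1A5 hardly differed and SLC1A4 rose. SLC1A5, a main route of glutamine into cancer cells, had an implied level of 3452 in knockout cells and 3360 in parental cells. SLC1A5 (ENSG00000105281; chromosome 19, 46774883 to 46788594, minus strand) had a log2 fold change of 0.04 ± 0.05 in the authors' deposited table, and its interval in percent ran from -3.5% to 9.35%. Antisense transcripts, not measured here, are annotated over 780 bases of SLC1A5, 1405 bases of SLC38A2 and 1132 bases of SLC7A5. Whether the counting used strand is not given in the sources used here, so reads of these stretches cannot be told apart.

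SLC1A4, a sodium-dependent exchanger of alanine, serine, cysteine and threonine, had 57, 65, 74 and 86 counts in the knockout libraries and 49, 50 and 53 in the parental libraries. In this recovered set the groups did not overlap. Its parental libraries lay closer together than counting noise alone usually gives, so their spread is not a measure of reproducibility. No other set fits the deposited mean within 3e-13, and 6 sets fit within 1e-12, of which 1 keeps the groups apart. Normalized counts averaged 71.2 ± 10.0 in knockout (SD, n = 4) and 49.2 ± 0.573 in parental libraries (SD, n = 3). SLC1A4 (ENSG00000115902; chromosome 2, 64988477 to 65023865, plus strand) had 0.54 ± 0.21 in the authors' deposited table, with a range at 95% of 0.13 to 0.94 (adjusted p 0.0297). The call was lost at a threshold of 0.01 and under the t distribution (adjusted p 0.144). Of its 10 neighbours, 6 were higher and none lower, with a median of 0.22. Over all genes tested, of any mean, 19.5% were higher. PELI1, a ubiquitin ligase gene close by, had 1.45 ± 0.13 in the authors' deposited table.

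Acidic amino acid carriers of the same SLC1 family were also measured. Of 7 SLC1A genes in the transporter lists, 5 were measured, 4 were higher and none was lower, with a median of 0.94. That is 80.0% higher, against 19.5% over all genes tested, in a family of few genes. SLC1A3, a glutamate and aspartate importer, had 1143 in knockout and 369 in parental cells, a log2 fold change of 1.63 ± 0.08 (adjusted p 8.31e-100) in the authors' deposited table. SLC1A6, a glutamate carrier best known from cerebellar neurons, stood at 2204 and 1030 in knockout and parental cells (1.10 ± 0.07). SLC1A1, which carries glutamate, aspartate and cysteine, stood at 526 and 274 in knockout and parental cells (0.94 ± 0.09). In the SLC7A family, 7 of 11 were measured, 4 were lower and none was higher, with a median of -0.40. That is 57.1% lower, against 18.5% over all genes tested. SLC7A5, SLC7A1 and SLC7A11 have means of at least 1000, and 27.7% of such genes were lower. The fall of SLC7A2 rests on 1 count over the knockout and 11 over the parental libraries. The difference between the families was not tested.

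SLC38A2 rose and its neighbour SLC38A1 did not differ detectably, although the 2 genes lie side by side. SLC38A2 (ENSG00000134294; chromosome 12, 46358189 to 46372867, minus strand) imports glutamine, alanine and proline with sodium and is known to be induced when amino acids run short. It stood at an implied 2680 in knockout and 2171 in parental cells. The authors' deposited table gives it 0.30 ± 0.06, with a range at 95% of 0.18 to 0.43 (adjusted p 9.08e-06). SLC38A1 (ENSG00000111371; chromosome 12, 46183063 to 46270017, minus strand), its closest relative with a similar substrate range, stood at 3492 in knockout and 3568 in parental cells. With -0.03 ± 0.05 (adjusted p 0.675) in the authors' deposited table, its interval of -0.13 to 0.06 does not reach that of SLC38A2. The difference between the 2 genes was not tested. The genes beside them moved in both directions: AMIGO2 had -1.10 ± 0.09 and LINC00938 had 1.27 ± 0.15 in the authors' deposited table, and the median of the 10 neighbours of SLC38A2 was 0.03.

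SLC7A1, the main carrier of arginine and lysine in most cells, fell. SLC7A1 (ENSG00000139514; chromosome 13, 29509410 to 29595688, minus strand) had an implied level of 2118 in knockout and 2527 in parental cells. Its log2 fold change in the authors' deposited table was -0.25 ± 0.06, with a range at 95% of -0.37 to -0.14 (adjusted p 9.11e-05), and its level fell by 16.2%. Under Holm adjustment the adjusted p was 0.232 and the call was lost. Its 10 neighbours had a median of -0.01, with 2 higher and 3 lower. SLC7A2, a second cationic carrier, was barely detected, with 1 count over the 4 knockout libraries and 11 over the 3 parental libraries (adjusted p 0.0353 in the authors' deposited table). Its fitted fold is not a usable size.

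SLC6A14, a concentrative carrier driven by sodium and chloride that accepts both neutral and cationic amino acids, was low in both groups. The knockout libraries held 9, 12, 20 and 21 counts and the parental libraries 6, 9 and 15. The groups overlapped. Normalized counts averaged 15.8 ± 6.17 in knockout (SD, n = 4) and 9.78 ± 4.62 in parental libraries (SD, n = 3). SLC6A14 (ENSG00000268104; chromosome X, 116436622 to 116461458, plus strand) did not pass in the authors' deposited table, with 0.69 ± 0.48, a range at 95% of -0.24 to 1.63 (adjusted p 0.263). Its 10 neighbours had a median of 0.05.

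**Figure D3:**
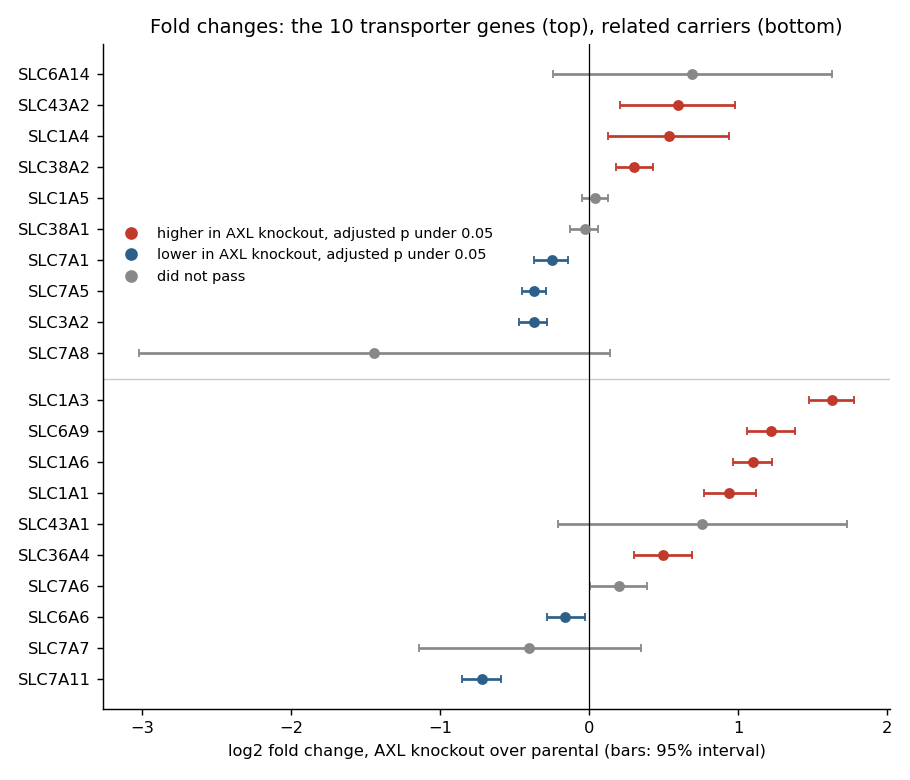
Log2 fold changes (x axis, AXL knockout over parental, bars give the 95% interval) of the 10 transporter genes (top) and of 10 other plasma membrane carriers (bottom), coloured by call in the authors' deposited table. The abundant members lie between -0.37 and 0.30, SLC7A8 and SLC6A14 have wide intervals, and SLC1A3 is highest at 1.63. SLC7A2 and SLC38A4, with few counts over the 7 libraries, are not drawn. SLC16A10 is not drawn either, with 3 counts over the knockout and 64 over the parental libraries (-4.76 ± 0.94).

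**Figure D4:**
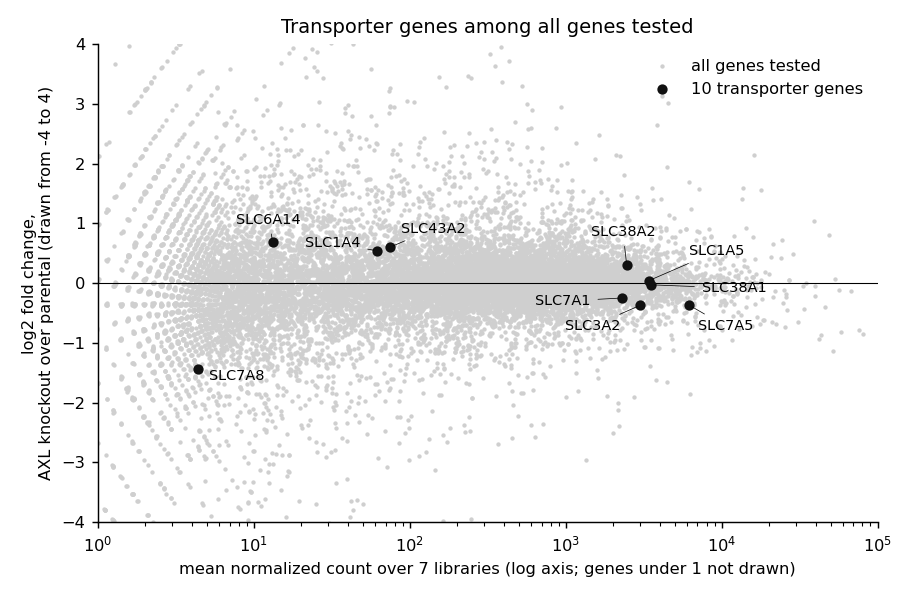
Log2 fold change (y axis, AXL knockout over parental) against the mean normalized count over the 7 libraries (x axis, log scale) for all genes tested (grey) and the 10 transporter genes (black), with the y axis drawn from -4 to 4 and genes with a mean under 1 left out. The 6 abundant members lie between -0.37 and 0.30, and SLC7A8 lies at the low-count end with -1.44.

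Beyond the 10, 29 other plasma membrane amino acid carriers were listed, and 13 of them were measured. In AXL knockout cells 5 were higher, 4 were lower and 4 did not pass in the authors' deposited table, with a median of 0.20 against -0.01 over all genes. The share called was 69.2% (38.5% higher and 30.8% lower), against 38.0% over all genes tested. Among genes with a mean of at least 1000, where 4 of the 13 lie, 59.4% were called. SLC6A9, the glycine transporter, had 1595 in knockout and 684 in parental cells (1.22 ± 0.08, adjusted p 6.84e-49). SLC36A4, a high-affinity carrier of proline and tryptophan, rose by 0.50 ± 0.10. SLC6A6, the taurine transporter, had 3302 in knockout and 3684 in parental cells (-0.16 ± 0.06, adjusted p 0.035). SLC16A10, a uniporter for aromatic amino acids, had 0, 1, 1 and 1 counts in the knockout libraries and 15, 20 and 29 in the parental libraries. The groups were far apart, with an adjusted p of 2.55e-06 in the authors' deposited table. Counting the 10 members as well, 23 carriers were measured, of which 8 were higher and 7 lower.

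Lysosomal carriers, which return amino acids from the lysosome to the cytosol, had 1 higher and 2 lower of 7 measured, with a median of 0.02 in the authors' deposited table. The share called, 42.9%, was near the 38.0% over all genes. CTNS, the cystine exporter, fell by 0.46 ± 0.10 on the log2 scale and SLC36A1, a proton-coupled exporter, by 0.42 ± 0.12. SLC15A4, which exports histidine and small peptides, rose by 0.30 ± 0.10. SLC38A9, the lysosomal arginine sensor, had 409 in knockout and 390 in parental cells and did not pass (0.07 ± 0.10).

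Of 35 genes of the mTORC1 sensing machinery, 8 were higher and 6 lower in the authors' deposited table, and the median was 0.03. The shares higher (22.9%) and lower (17.1%) were near those over all genes (19.5% and 18.5%). SEC13, a subunit of the GATOR2 complex and of the COPII coat, had 1396 in knockout and 2010 in parental cells (-0.53 ± 0.06). The sestrins, which include leucine sensors, split: SESN1 rose by 0.81 ± 0.15 and SESN2 fell by 0.58 ± 0.13 in the authors' deposited table. LAMTOR4, a subunit of the Ragulator scaffold on the lysosome, rose by 0.46 ± 0.10. MTOR (904 in knockout and 883 in parental cells) and RPTOR (565 and 602 in knockout and parental cells) did not pass.

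Genes of the amino acid response had 3 of 28 higher and 10 lower, with a median of -0.09 in the authors' deposited table. These are 10.7% higher and 35.7% lower, against 19.5% and 18.5% over all genes, and 46.4% called, against 38.0%. Among genes with a mean of at least 1000, where 13 of the 28 lie, 59.4% were called, 31.7% higher and 27.7% lower. ATF4, whose activity is set largely by translation, had 5778 in knockout and 5657 in parental cells and did not pass (0.03 ± 0.07). Of its known targets, PSPH, the last enzyme of serine synthesis, had -0.73 ± 0.07, while PHGDH, the first enzyme, had 0.60 ± 0.05. CEBPB, a transcription factor that pairs with ATF4, had 7379 in knockout and 3944 in parental cells (0.90 ± 0.05). CHAC1, a glutathione-degrading enzyme, had 12.0 in knockout and 29.9 in parental cells (-1.32 ± 0.37) in the authors' deposited table. CHAC1 was named after its value was seen. The 15 genes of this list that did not pass include ASNS, DDIT3, TRIB3, PSAT1, MTHFD2 and SHMT2. SLC7A11 and SESN2, given above, are on this list too. Cytosolic aminoacyl-tRNA synthetases, which load amino acids onto tRNAs, had 1 of 20 higher and 7 lower, with a median of -0.10. These 8 of 20 called are a share near the 38.0% over all genes and below the 59.4% of genes with a mean of at least 1000, where 19 of the 20 lie. GARS1, for glycine, had the smallest p, with 2887 in knockout and 3692 in parental cells (-0.36 ± 0.05), followed by YARS1 for tyrosine (-0.26 ± 0.06) and TARS1 for threonine (-0.23 ± 0.06). QARS1, for glutamine, was the 1 that rose (0.15 ± 0.06).

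Enzymes that use glutamine and glutamate had 5 of 24 measured genes higher and 9 lower, with a median of -0.14 in the authors' deposited table. The share called was 58.3%, against 38.0% over all genes and 59.4% of genes with a mean of at least 1000, where 9 of the 24 lie. GLUL, which makes glutamine from glutamate and ammonia, had 1922 in knockout and 1251 in parental cells (0.62 ± 0.08). GFPT2, which uses glutamine to make hexosamines, had 348 in knockout and 986 in parental cells (-1.50 ± 0.08), and PPAT, which uses it in purine synthesis, had 243 and 567 in knockout and parental cells (-1.22 ± 0.09).

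Transcription factors known to act on these transporter genes were counted last: 2 of 8 measured were higher, 2 lower and the median was 0.01 in the authors' deposited table. These are 4 of 8 called, against 59.4% of genes with a mean of at least 1000, where 7 of the 8 lie. MYC, an activator of SLC7A5 and SLC1A5, had 5761 in knockout and 6071 in parental cells and did not pass (-0.08 ± 0.05, adjusted p 0.204). WWTR1, which encodes TAZ, had 819 in knockout and 1783 in parental cells (-1.12 ± 0.06), while its relative YAP1 had 2861 and 1910 in knockout and parental cells (0.58 ± 0.05). HIF1A fell by 0.26 ± 0.04, and EPAS1, which encodes HIF-2 alpha, did not pass, at 0.00 ± 0.05. ESR1, the estrogen receptor gene, had 59.9 in knockout and 28.5 in parental cells (1.07 ± 0.24) in the authors' deposited table.

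**Figure D5:**
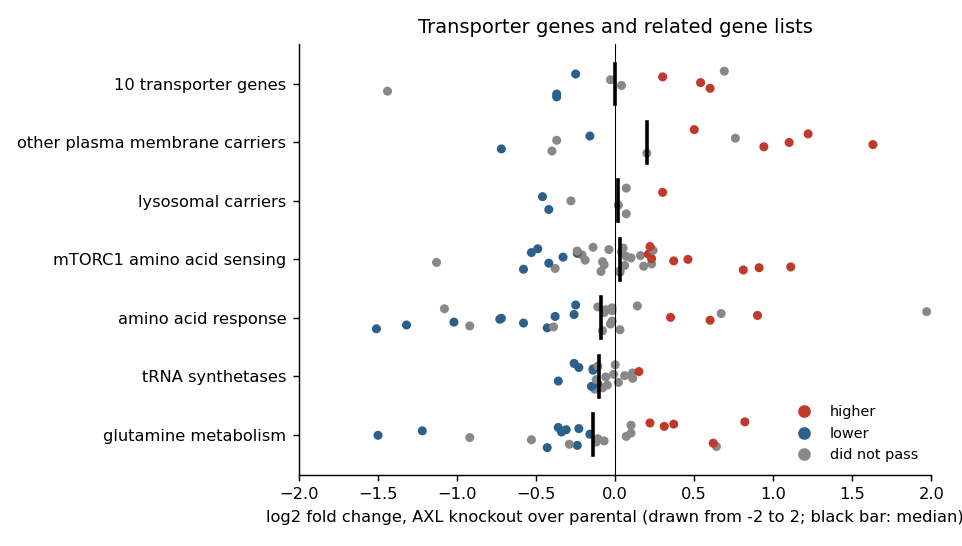
Log2 fold changes (x axis, AXL knockout over parental, drawn from -2 to 2) of the 10 transporter genes and of 6 related gene lists, 1 point per measured gene, coloured by call in the authors' deposited table, with the median as a black bar. Medians lie between -0.14 and 0.20. SLC7A2 and SLC16A10 lie outside the range drawn.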

How the data were processed

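Bulk MARS-seq libraries were aligned to a human genome after read filtering, per the labels' protocols. The submitters' processing notes name DESeq2, with no version. The aligner, counter, genome build, annotation and use of strand or molecular identifiers were not given in the sources used here. Per the file headers, the authors deposited 1 row per gene with a signal (the mean normalized count over the libraries), a log2 fold change and the error of it, a score (the Wald statistic), a p-value and an adjusted p-value. The statistic equals the fold change over its error to within 1.56e-13, and Benjamini-Hochberg adjustment over the 16522 tested rows returns the deposited adjusted p to within 1.44e-15. The other 5 of 16527 rows have none. The edgeR fit planned for counts per library was not run, since the table holds statistics per gene, and the authors' Wald test stands in its place.

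The header names no contrast. All 52 distinct means under 0.6 are sums of whole counts over 7 steps, 1 per library, to within 1e-10. The signs of these rows allowed 2 splits of the steps, 3 against 4 or the reverse. In 150 rows with means of 3 to 12 the whole counts were then solved, each with 1 solution. The log2 ratio of the group means differed from the deposited fold change by a median of 0.00648 over 144 of them with 3 libraries on the negative side and 4 on the positive side, and by 0.313 over 142 with the other split. Since the labels list 3 parental libraries and 4 of knockout cells, a positive fold change means more in knockout cells. The same solution gave whole counts for transporter genes with a mean under 20 (tolerance 1e-13), and for SLC1A4 and SLC43A2 among combinations within 2% of the implied levels. Checked on simulated data, 40 of 40 genes with a mean like SLC7A8 and 40 of 40 like SLC6A14 were recovered. At means like SLC1A4 and SLC43A2 the solution was unique for 9 of 12 and 7 of 12, and all of those were right. The simulation took the library steps as known. Recovering counts was chosen after the table was seen, and the tolerance was set after SLC43A2 gave 3 combinations at 3e-13.

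Symbols were matched for 16428 rows, and positions are those of GENCODE 29. Each 95% interval is normal and uses the deposited error. The labels do not say whether replicates are separate cultures, so p-values reflect only how these libraries vary, which may be technical. Named were the 10 transporter genes, AXL and, from each related list, up to 4 called genes whose mean reaches 20, by smallest p (1 of these is not reported here); other genes are given as values beside these and were picked with the values known. The members and lists were chosen with earlier results of these data known. Neighbours are the 5 nearest tested genes on each side with a mean of at least 50. Python 3.11.15, numpy 2.4.6, pandas 2.3.3, scipy 1.17.1 and matplotlib 3.10.9 were used.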

Additional observations from a re-analysis of the deposited data

How the results depend on the processing

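Apart from centring, the alternatives change the test and not the fold change, so they say nothing about direction. Centring on the median of 0.01 and a mean of at least 20 changed no call among the genes tested. At an adjusted p under 0.01 only SLC1A4 was lost. A t distribution with 5 degrees of freedom left 1 transporter gene higher (SLC38A2) and the 3 lower, and 1862 higher and 1614 lower genes in the table. Those degrees of freedom still count the 7 libraries as separate, although the 4 knockout libraries come from 2 clones. Holm adjustment left 1 higher and 2 lower, without SLC7A1 (adjusted p 0.232, range over its alternatives 5.74e-05 to 1), and 1523 higher and 1304 lower in the table, against 3228 and 3053 with Benjamini-Hochberg adjustment. Against a null of an absolute log2 fold change of 0.5, the authors' Wald values left 0 transporter genes higher and 0 lower, also 0 at an unadjusted p under 0.05, and 678 higher and 622 lower genes in the table. For SLC43A2, loosening the tolerance of the recovered counts, a choice made after seeing the data, raised the number of fitting sets to 11, against 6 for SLC1A4. No paired analysis was possible because the table carries no values per library for most genes and the recovered counts carry no replicate number. TMM normalization, leaving out each library and each clone against parental cells were not run for the same reason. Depth limits SLC7A8 and SLC6A14, whose intervals span more than the changes seen in the abundant members.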
